A study of Homo sapiens with 6 samples.

Results

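The ERBB receptors and the EGF-type ligands that activate them were followed in OV2008 cells given a microRNA mimic. The rule named 10 genes, 4 receptors (EGFR, ERBB2, ERBB3, ERBB4) and 6 ligands (EREG, AREG, HBEGF, TGFA, BTC, EPGN), and took for each the probe set with the highest mean among those annotated with exactly 1 symbol. It gave a value for 8 of the 10, namely 3 receptors and 5 ligands, among 22465 genes with such a probe set. ERBB2, whose probe set carries a second symbol, and AREG were not analysed here. Each of the 8 had 1 probe set, and all 8 were among the 18836 genes tested.

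ERBB receptors are membrane tyrosine kinases that dimerise when a ligand binds and signal through RAS and ERK and through PI3K and AKT. Their EGF-type ligands are made as membrane precursors and are released by sheddases, mainly ADAM metalloproteases. Epithelial cells, including many carcinomas, make both receptors and ligands and so can stimulate themselves.

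Total RNA from 6 samples, 100 ng each, was measured on whole-transcript arrays, 3 from cells transfected with a negative control microRNA and 3 from cells transfected with a miR-328-3p mimic, in both cases for 3 days. OV2008 is 1 established human line, labelled as ovarian cancer and reported elsewhere to come from a cervical carcinoma, so both groups share its genome, and no untransfected cells were analysed here. The labels do not say whether the 3 samples of a group were separate cultures, so p-values speak only to how these 6 samples vary, and that variation could be technical. Values are on a scale taken to be log2, with array medians over transcript clusters from 4.10 to 4.17.

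The labelled origin was set against defining markers. Of 6 markers of ovarian or Mullerian epithelium, 4 had a mean over the 6 arrays below the array median, among them MUC16 at 3.41 in the control and 3.56 in the mimic group. PAX8 lay just above it, at 4.33 and 4.38, and ESR1 well above, at 7.36 and 7.02. All 6 general epithelial markers and all 4 squamous markers with a value lay above it, with the keratin KRT5 at 17.03 in the control and 17.00 in the mimic group. The squamous markers did not move together: the desmosomal cadherin DSG3 fell by 0.88, from 14.59 to 13.72 (adjusted p = 8.60e-05), PERP rose by 0.22, from 12.89 to 13.11 (adjusted p = 0.0135), and KRT14 stood at 5.14 and 5.45 (adjusted p = 0.0555). The summed level of the 6 epithelial markers ran from 71.4 to 71.8 in the control arrays and from 72.9 to 73.4 in the mimic arrays, and that of the squamous markers from 49.6 to 49.7 and from 49.2 to 49.4. Fibroblast markers summed to between 18.6 and 19.0 in the control group and 18.7 and 19.1 in the mimic group. The 5 leukocyte markers summed to between 21.8 and 22.2 in the control group and between 23.4 and 23.5 in the mimic group, although PTPRC, which defines the lineage, stood at 3.41 and 3.44, below every array median. CD68, which is also a lysosomal protein, carried most of that difference and rose by 0.99. The 5 endothelial markers summed to between 18.6 and 18.8 and between 17.9 and 18.2, with PECAM1 at 2.93 and 3.05. CDH5, which was the 1 endothelial marker above the array median, fell by 0.68, from 5.48 to 4.80 (adjusted p = 0.00247), and carried that difference. The part of these markers in the results below was not tested.

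The transfected molecule is shown because its seed is what pairs with targets. The mature sequence is that of RefSeq (GRCh38.p14, chr16:67202327-67202348, minus strand), with the seed, bases 2 to 8, in capitals:
hsa-miR-328-3p: cUGGCCCUcucugcccuuccgu
Among the mature human microRNAs of that table, 1 name carries this seed. Whether transcripts of the receptors or ligands hold a matching site was not tested.

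Comparing the mimic with the control arrays asked which of these genes differed 3 days after transfection. HBEGF, the precursor of heparin-binding EGF-like growth factor, rose 2.24-fold, and BTC, betacellulin, was 1.51-fold lower. EREG, epiregulin, rose 1.24-fold, and EGFR, the founding receptor of the family, was 1.15-fold lower. ERBB3, ERBB4, TGFA and EPGN did not pass an adjusted p of 0.05 in limma, the test used throughout. Of the 8 members, 2 rose and 2 fell, where 18.0% of all tested genes changed, 7.21% rising and 10.8% falling. The median log2 fold change of the 8 was -0.01, and that of all tested genes was 0.01. The groups did not overlap for 6 of the 8 members, against 41.6% of tested genes. In such bulk RNA, fewer cells making a transcript and less of it per cell cannot be told apart.

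**Figure D1:**
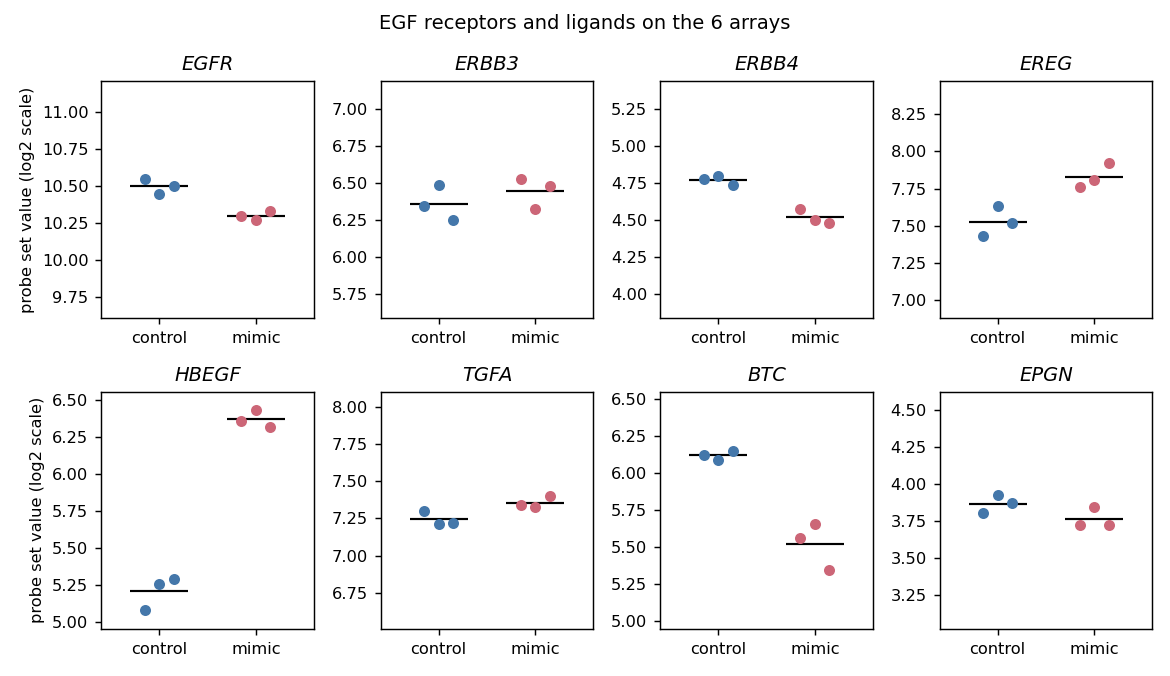
Probe set values (log2 scale, each panel spanning the same range) of the 8 members on the 3 control arrays (blue, left) and the 3 mimic arrays (red, right), in replicate order, with a bar at each group mean. HBEGF goes from a mean of 5.21 to 6.37 and BTC from 6.12 to 5.52, and the shifts of the other 6 are smaller.

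Among the receptors, EGFR is bound by all 5 ligands measured here. Its values were 10.55, 10.45 and 10.50 in the control arrays and 10.30, 10.27 and 10.33 in the mimic arrays. Every mimic array lay below every control array, by a small margin. The means were 10.50 ± 0.0512 and 10.30 ± 0.0294 (SD, n = 3), a log2 fold change of -0.20 ± 0.0446 (SE) with a 95% confidence interval from -0.31 to -0.09 and an adjusted p of 0.0359. This call depended on the processing and on single arrays. EGFR did not pass without a filter on signal (adjusted p = 0.0553) or without a trend in the variance (0.0841). Omitting control array 1 gave an adjusted p of 0.0870 and omitting control array 3 one of 0.117. Leaving mimic array 1, 2 or 3 aside gave 0.103, 0.134 and 0.0688. EGFR still passed when control array 2 was dropped (0.0464).

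ERBB4, a receptor for neuregulins and for several EGF-type ligands, had weak signal. Its control values of 4.78, 4.80 and 4.74 and mimic values of 4.58, 4.50 and 4.48 did not overlap. The difference of -0.25 ± 0.0675 (SE; 95% confidence interval from -0.41 to -0.09) had an adjusted p of 0.0672 and did not pass as the table was deposited. It passed with arrays centred on their medians (adjusted p = 0.0371) and after quantile normalization (0.0419). It also passed without a trend in the variance (0.0454) and when the dimmer 50% of probe sets was left out (0.0411). ERBB4 did not pass without a filter on signal (adjusted p = 0.0788) or with the replicate number as a block (0.132). Whichever array was left out, ERBB4 did not pass either (adjusted p between 0.105 and 0.190).

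ERBB3, which has little kinase activity of its own and signals as a partner of the other receptors, read 6.35, 6.49 and 6.25 in the control group and 6.53, 6.33 and 6.48 in the mimic group. The groups overlapped. The log2 fold change of 0.09 had a 95% confidence interval from -0.13 to 0.30 and an adjusted p of 0.629.

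HBEGF encodes a ligand of EGFR and ERBB4 whose precursor also serves as the diphtheria toxin receptor. It read 5.08, 5.26 and 5.29 in the control arrays and 6.36, 6.43 and 6.32 in the mimic arrays. All 3 mimic arrays stood above all 3 control arrays, and the gap was far wider than the spread inside either group. The means were 5.21 ± 0.116 and 6.37 ± 0.0540 (SD, n = 3), a log2 fold change of 1.16 ± 0.0802 (SE; 95% confidence interval from 0.97 to 1.35) with an adjusted p of 0.000462. Only 35 of the 18836 tested genes had a higher fold change. The adjusted p stayed between 0.00180 and 0.00468 whichever array was left out.

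BTC, a ligand of EGFR and ERBB4, moved the other way. It read 6.12, 6.09 and 6.15 in the control arrays and 5.56, 5.66 and 5.35 in the mimic arrays. The control values lay close together, the mimic values spread more widely, and all of the latter were lower. The means were 6.12 ± 0.0264 and 5.52 ± 0.159 (SD, n = 3), a log2 fold change of -0.60 ± 0.0912 (SE; 95% confidence interval from -0.82 to -0.38) with an adjusted p of 0.00829. A total of 390 tested genes had a lower fold change. Its adjusted p lay between 0.0140 and 0.0400 whichever array was left out.

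EREG, another ligand of EGFR and ERBB4, read 7.43, 7.63 and 7.52 in the control arrays and 7.76, 7.81 and 7.92 in the mimic arrays. The groups did not overlap, but the gap between the nearest arrays was no wider than the spread within a group. The log2 fold change was 0.30 ± 0.0722 (SE; 95% confidence interval from 0.13 to 0.48) with an adjusted p of 0.0428. It did not pass with arrays centred on their medians (0.26, adjusted p = 0.0718), after quantile normalization (adjusted p = 0.0571), without a trend in the variance (0.0583) or without a filter on signal (0.0559). Omitting control array 1 or 3 gave an adjusted p of 0.101 and 0.128, and omitting mimic array 1, 2 or 3 gave 0.0762, 0.115 and 0.109. With control array 2 dropped EREG still passed (0.0443).

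TGFA, transforming growth factor alpha, a ligand of EGFR, read 7.30, 7.21 and 7.22 in the control arrays and 7.34, 7.33 and 7.40 in the mimic arrays. The groups were apart by less than the spread within either. The log2 fold change of 0.11 (95% confidence interval from -0.02 to 0.24) had an adjusted p of 0.277. EPGN, epigen, a ligand of EGFR, read 3.80, 3.92 and 3.87 against 3.72, 3.84 and 3.72. The groups overlapped, and every value was below the array medians. Its log2 fold change was -0.11 (95% confidence interval from -0.27 to 0.06, adjusted p = 0.435).

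**Figure D2:**
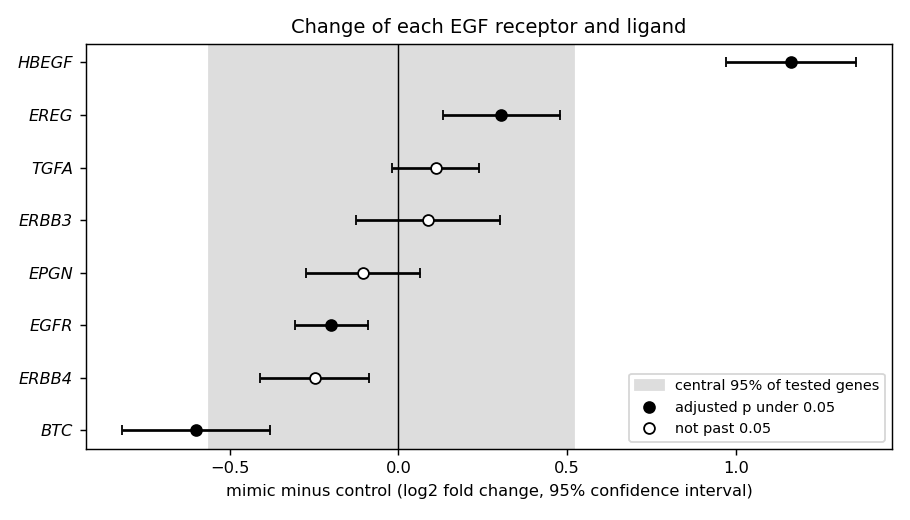
Log2 fold change (mimic minus control) of the 8 members with its 95% confidence interval, where filled points passed an adjusted p of 0.05 and the grey band holds the central 95% of the 18836 tested genes, from -0.56 to 0.52. HBEGF at 1.16 and BTC at -0.60 lie outside the band, and the other 6 lie inside it.

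The count of changed members depended on the arrays and the processing more than the values did. Without any 1 array other than control array 2, HBEGF rose, BTC fell and no other member passed. With arrays centred on their medians, or after quantile normalization, 1 member rose and 3 fell, ERBB4 taking the place of EREG among the 4. HBEGF and BTC passed under all 12 alternatives, and no member changed sign under any.

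**Figure D3:**
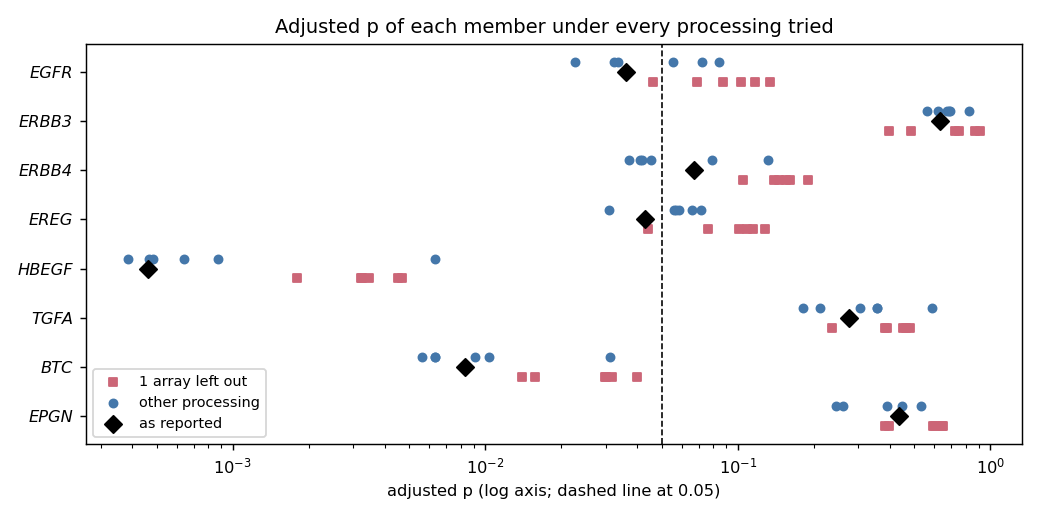
Adjusted p (log axis) of each member as reported (black diamond), with 1 array left out (red squares) and under other processing (blue circles), with a dashed line at 0.05. HBEGF and BTC stay left of the line throughout, EGFR, EREG and ERBB4 have points on both sides, and ERBB3, TGFA and EPGN stay to the right.

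The ligand genes EPGN, EREG, AREG and BTC follow one another on chromosome 4 in the RefSeq order of protein-coding genes. The neighbours in this row did not share a direction, with EPGN at -0.11, EREG at 0.30 and BTC at -0.60. The protein-coding genes on either side did not pass, with MTHFD2L at 0.14 (adjusted p = 0.316) before EPGN and PARM1 at -0.05 (adjusted p = 0.784) after BTC. HBEGF lies apart from them on chromosome 5.

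Promoter sequences of the 3 ligands that passed are printed to show how these start sites differ. Each runs from 250 bases before to 50 bases after a RefSeq start site (GRCh38.p14), HBEGF from chr5:140346554-140346853 on the minus strand, EREG from chr4:74364895-74365194 on the plus strand and BTC from chr4:74794474-74794773 on the minus strand. Capitals mark matches, on either strand, to motifs of 5 transcription factor families or core promoter boxes, spelled out after the sequences.
HBEGF: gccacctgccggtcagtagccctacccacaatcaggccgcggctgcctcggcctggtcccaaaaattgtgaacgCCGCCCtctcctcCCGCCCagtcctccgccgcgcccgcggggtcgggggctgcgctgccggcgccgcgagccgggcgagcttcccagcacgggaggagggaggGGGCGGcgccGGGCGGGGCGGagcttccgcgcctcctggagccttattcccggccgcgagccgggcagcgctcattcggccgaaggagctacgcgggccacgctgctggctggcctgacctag
EREG: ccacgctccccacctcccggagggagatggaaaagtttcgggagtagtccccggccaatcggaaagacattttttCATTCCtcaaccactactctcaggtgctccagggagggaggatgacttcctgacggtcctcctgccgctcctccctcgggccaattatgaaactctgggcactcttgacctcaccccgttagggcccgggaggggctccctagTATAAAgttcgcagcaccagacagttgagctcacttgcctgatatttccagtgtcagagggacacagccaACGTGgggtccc
BTC: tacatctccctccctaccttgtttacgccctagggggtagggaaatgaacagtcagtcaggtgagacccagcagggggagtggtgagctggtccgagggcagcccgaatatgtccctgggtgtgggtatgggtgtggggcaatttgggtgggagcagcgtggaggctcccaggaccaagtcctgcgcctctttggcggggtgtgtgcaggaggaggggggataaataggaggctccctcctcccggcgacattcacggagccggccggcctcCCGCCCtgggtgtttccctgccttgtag
The GC box searched for was GGGCGG, which is in 45% of 35116 promoters of the same length. The HBEGF window holds 5 of them, the last 2 overlapping by 1 base, and the BTC window holds 1. The TATA box was searched for as TATAAA, which is in 11.5% of promoters, and the EREG window holds 1. For the core of hypoxia-inducible factor sites, ACGTG, the share of promoters was 21.4%, and for the site of TEAD factors, read as GGAATG, it was 14%. The EREG window holds 1 match to each of these 2 motifs. The AP-1 motif, TGANTCA, is in 7.71% of promoters, and its letters are in none of the 3 windows. G or C made up 75.0% of the HBEGF window, 63.0% of the BTC window and 57.7% of the EREG window, against a median of 58.7% over all promoters. No other overlap between motifs occurs in these windows.

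Ligands of the family outside the 10 members also moved in both directions. Of 4 tested among EGF and the neuregulins, 2 rose, 1 fell and 1 did not pass, with a median of 0.24. Changed genes made up 75% of this short list, against 18.0% of all tested genes. The genes of this list and of those below were chosen with earlier results known and were not matched for signal. Their shares are a description only. EGF itself rose by 0.70 ± 0.0858 (SE, adjusted p = 0.00354), from 3.90, below the array medians, to 4.60. NRG4, a ligand of ERBB4, rose by 0.43, from 9.42 to 9.85 (adjusted p = 0.00263). NRG1, a ligand of ERBB3 and ERBB4, fell by 0.44 on the log2 scale, from 11.02 to 10.58 (adjusted p = 0.00126).

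Sheddases cut ligand precursors at the cell surface. Of 11 tested sheddases and cofactors, 2 rose, 1 fell and 8 did not pass (27.3% changed, against 18.0% of all tested genes, median 0.03). ADAM17, the main sheddase of HBEGF, TGFA and EREG precursors, rose by 0.35 (11.11 to 11.46, adjusted p = 0.00305), and ADAM9 by 0.23 (14.14 to 14.38, adjusted p = 0.0143). ADAM10, the main sheddase of BTC, read 13.15 and 13.12 (log2 fold change -0.03, adjusted p = 0.695). The rhomboid protease RHBDL2 passed at -0.46 (adjusted p = 0.0362). RHBDL2 no longer passed when control array 1 (0.0965) or 3 (0.122) or mimic array 1 (0.0594), 2 (0.104) or 3 (0.0793) was dropped. ADAM9 was lost after quantile normalization (0.0742), without a trend in the variance (0.0514) and when control array 3 (0.0648) or mimic array 2 (0.0640) was dropped. Dropping either of these 2 arrays left 1 changed gene in the list.

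Adaptors and enzymes next to the receptors numbered 18 tested, of which 5 rose, 3 fell and 10 did not pass (median 0.08). The changed share was 44.4%, against 18.0% of all tested genes. The adaptor CRKL rose by 0.60 (adjusted p = 0.000422) and GRB2, which links phosphorylated receptors to RAS activation, by 0.56 (8.82 to 9.38, adjusted p = 0.00271). SHC1, an adaptor that recruits GRB2, rose by 0.31 (adjusted p = 0.00959), while the RAS exchange factor SOS1 passed at -0.20 (adjusted p = 0.0433). VAV3 fell by 0.43 (adjusted p = 0.00749), and the adaptor NCK1 passed at -0.20 (adjusted p = 0.0384). SOS1 and NCK1 were lost without a filter on signal (0.0647 and 0.0601) and without a trend in the variance (0.0936 and 0.0801). They were lost with the replicate number as a block too (0.0858 and 0.0900). Both also depended on all 6 arrays. For SOS1, dropping control array 1, 2 or 3 gave 0.105, 0.0549 and 0.139, and dropping mimic array 1, 2 or 3 gave 0.134, 0.149 and 0.0552. For NCK1, dropping control array 1, 2 or 3 gave 0.0917, 0.0856 and 0.0825, and dropping mimic array 1, 2 or 3 gave 0.107, 0.139 and 0.0748. SHC1 was lost with mimic array 2 dropped (0.0501). With any 1 array other than control array 2 dropped, 5 genes of the list changed, and with that one dropped, 6.

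In the RAS, RAF, MEK and ERK list, 3 of 11 tested genes rose, 1 fell and 7 did not pass (median 0.07). Changed genes were 36.4% of the list, against 18.0% of all tested genes. MAP2K1, which encodes the kinase MEK1, rose by 0.64 (10.44 to 11.08, adjusted p = 0.00234), and MAP2K2, which encodes MEK2, passed at 0.30 (adjusted p = 0.0370). RASAL2, a RAS GTPase-activating protein, fell by 0.40 (adjusted p = 0.00568). MAP2K2 was lost with median centring (0.0634) and with the replicate number as a block (0.0518). It was also lost when control array 2 (0.0904) or 3 (0.112) or mimic array 1 (0.120), 2 (0.115) or 3 (0.0640) was dropped.

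In the PI3K and AKT list, 2 of 12 tested genes rose, 2 fell and 8 did not pass (median -0.03). A share of 33.3% changed, against 18.0% of all tested genes. RICTOR, a subunit of the mTORC2 kinase complex, rose by 0.35 (adjusted p = 0.00219), and the lipid phosphatase INPP4B by 0.26 (adjusted p = 0.0125). The regulatory subunits PIK3R1 and PIK3R3 of PI3K passed at -0.30 (adjusted p = 0.0241) and -0.26 (adjusted p = 0.0187). PIK3R1 was lost when control array 1 (0.0702) or 2 (0.0775) or mimic array 1 (0.0747), 2 (0.0647) or 3 (0.0528) was dropped. PIK3R3 was lost when control array 1 (0.0505) or 3 (0.0633) or mimic array 1 (0.0564), 2 (0.0618) or 3 (0.0586) was dropped, and INPP4B with mimic array 2 dropped (0.0600). Changed genes of this list then numbered 2 with control array 1, mimic array 1 or mimic array 3 dropped, and 1 with mimic array 2 dropped. With the replicate number as a block, PIK3R1 (0.0648), PIK3R3 (0.05002) and INPP4B (0.0510) were lost.

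Of 15 tested receptor inhibitors and phosphatases, 2 rose, 1 fell and 12 did not pass (median -0.07). The 20% that changed lies near the 18.0% of all tested genes. ERRFI1, which binds and blocks the kinase domain of EGFR, rose from 11.05 ± 0.0132 to 12.68 ± 0.0373 (SD, n = 3), a 3.08-fold difference with an adjusted p of 4.56e-05. PTPN1, a phosphatase that dephosphorylates EGFR, rose by 0.44 (adjusted p = 0.00250), and the receptor phosphatase PTPRK fell by 0.51 (adjusted p = 0.000557). The inhibitors LRIG1, LRIG2 and LRIG3 did not pass, at -0.06, -0.17 and -0.14.

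Of 23 tested genes of receptor endocytosis and degradation, 9 rose, 3 fell and 11 did not pass (median 0.11). The changed share was 52.2%, against 18.0% of all tested genes. UBASH3B, a phosphatase that binds the ubiquitin ligase CBL, rose by 0.94 (7.01 to 7.95, adjusted p = 0.000557), and HGS, which sorts ubiquitinated receptors at the endosome, by 0.45 (adjusted p = 0.00726). CBLB, a ubiquitin ligase for EGFR, fell by 0.51 (adjusted p = 0.00111), whereas its relative CBL rose by 0.26 (adjusted p = 0.0123). RAB11A, a GTPase of recycling endosomes, fell by 0.42 (14.17 to 13.75, adjusted p = 0.00191). CBL was lost with control array 3 (0.0545) or mimic array 1 (0.0512) dropped. With control array 3 dropped, 5 genes of the list rose and 2 fell.

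Transcripts known as outputs of ERK signalling were divided. Of 28 tested, 7 rose, 6 fell and 15 did not pass (46.4% changed, against 18.0% of all tested genes, median -0.11). IER3, an early response survival gene, rose by 1.14 (adjusted p = 0.000404), the ETS factor ETV5 by 0.85 (adjusted p = 0.000597) and the ERK phosphatases DUSP4 by 0.51 (adjusted p = 0.00830) and DUSP5 by 0.41 (adjusted p = 0.00437). The transcription factor FOS fell by 1.30 (9.39 to 8.09, adjusted p = 0.000213), the feedback inhibitor SPRY1 by 0.92 (adjusted p = 0.000626), EGR1 by 0.80 (adjusted p = 0.000247) and the ERK phosphatase DUSP6 by 0.68 (adjusted p = 0.000400). Also passing were KLF6 at 0.56 (adjusted p = 0.00281), CCND1 at 0.51 (0.00143) and FOSL1 at 0.32 (0.0398). ZFP36 passed at -0.78 (adjusted p = 0.00221) and FOSB at -0.35 (0.0130). KLF6, CCND1, FOSL1, ZFP36 and FOSB were not recomputed singly under other processing.

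**Figure D4:**
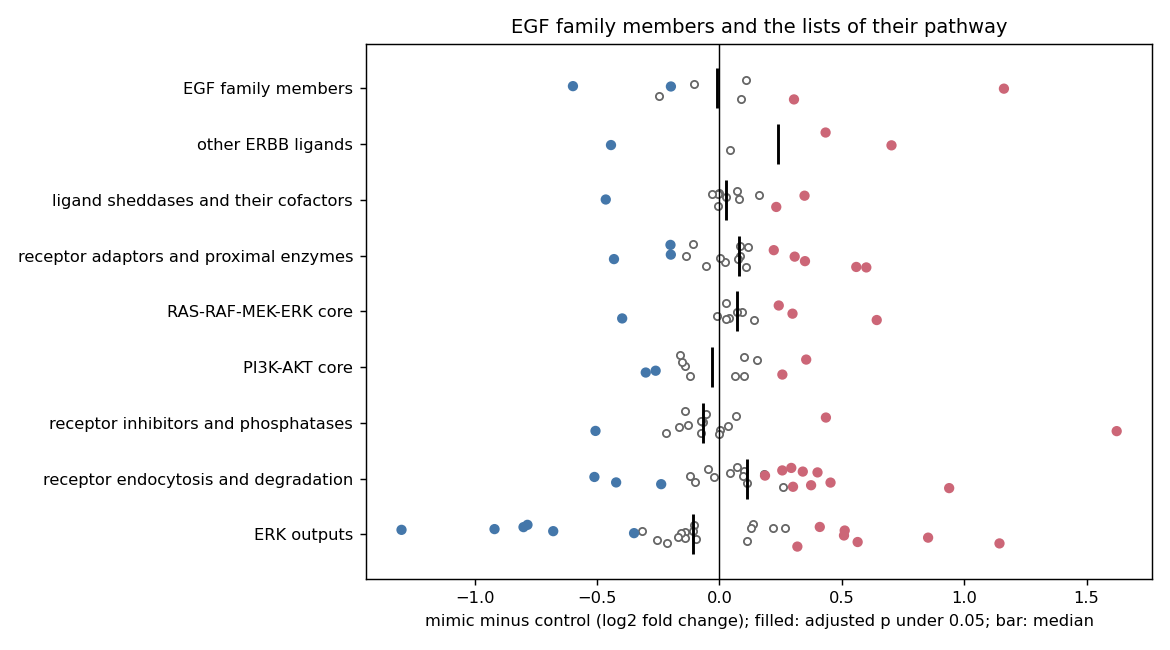
Log2 fold change (mimic minus control) of each tested gene in the EGF family and in 8 lists of its pathway, where red points rose and blue points fell at an adjusted p under 0.05, open points did not pass, and a bar marks each list's median. Every list has changed genes on both sides of 0, with ERRFI1 at 1.62 and FOS at -1.30 farthest out.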

How the data were processed

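Arrays were made from biotin-labelled sense-strand DNA, per the labels' protocols. The authors deposited 1 value per probe set and array, on a scale inferred to be log2 because values run from 1.62 to 19.9. Per the submitters' processing notes, MAS5 was named, without role or version. The probe summary, background step and build are, for this table, not given in the sources used. Some values exceed 16, the log2 limit of a 16-bit scanner, so folds hold on this scale only. Arrays have no read depth, and 3 per group limit the precision. Titles and source names set the groups, since the free-text description gives the control microRNA for all 6 samples.

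Of 70523 probe sets, 2995 controls were left out, and of 67528 transcript clusters the 25% with the lowest mean (up to 3.47) were not tested, which left 50646. Symbols came from the platform annotation, where 23781 clusters carry 1 symbol, 1543 several and 42204 are unnamed here. The fit was limma 3.58.1 in R 4.3.3 (1 linear model per probe set, eBayes with a trend, two-sided, Benjamini-Hochberg over all probe sets tested, threshold 0.05). It was also run on simulated data, with 50 probe sets changed at each size. There it recovered 74% and 52% of changes of -1 and 1, and 32% and 24% of changes of -0.5 and 0.5. Far fewer probe sets changed there than the 5785 that passed in these data, which makes the adjustment stricter in the simulation. Its shares therefore do not give the recovery in these data. A gene that did not pass may still have changed. Standard errors and confidence intervals are from the fit to the deposited values, and the intervals are not adjusted. Alternatives were other filters, scalings, an untrended variance, the replicate number as a block and leaving out each array.

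The members and lists were chosen with earlier results of these data known, so their shares of changed genes are a description. The 8 pathway lists hold 142 genes, and those without a tested probe set of 1 symbol were not analysed here. The rule named all members and, per list, up to 2 passing genes with the largest rise and 2 with the largest fall. SHC1, SOS1, ADAM10, LRIG1, LRIG2, LRIG3, CBL, DUSP4, DUSP5, DUSP6, EGR1 and the neighbouring genes were named after their values were seen. The same holds for KLF6, CCND1, FOSL1, ZFP36 and FOSB. Sequences are RefSeq's. Figures used matplotlib 3.10.9 in Python 3.11.15.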

Additional observations from a re-analysis of the deposited data

How the results depend on the processing

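Over 12 alternatives, 47 named genes were recomputed 563 times: 490 kept their side of the threshold, 69 lost a call, 4 (all ERBB4) gained one and 0 changed sign. EPGN had no value with the dimmer 50% left out, and no member had a second probe set to try. The EGF family had 4 changed genes as reported, 5 with the dimmer 50% left out and 3 without a variance trend. It had 2 without a filter on signal, 2 with the replicate block and 2 to 4 with 1 array left out. The values themselves moved little. With 1 array left out, changed probe sets fell from 5785 to between 3459 and 4793 and changed genes from 3392 to between 2105 and 2704. The 50 changed genes of the pathway lists became 36 to 43 with 1 array left out and 38 with the replicate block. The adaptor list, with 8 changed genes as reported, had 5 without a variance trend or with the block, and the PI3K and AKT list 1 in place of 4 with the block. Centring each array on its median lowered the share of changed probe sets that rose from 41.7% to 31.4%. The labels give samples of the same number, and do not say whether they were paired. The correlations of deviations from the group means were 0.142, -0.0497 and 0.182 for same-number samples 1, 2 and 3. Control arrays 1 and 3 correlated best with the mimic array of their own number, and control array 2 with mimic array 3 (0.0651). With the replicate block, 4516 probe sets changed, and EGFR (adjusted p = 0.0722) and EREG (0.0662) were lost. The cause of these losses was not tested. EPGN lay below the array medians on all 6 arrays.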

Other observations

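Among the members, the receptor and the ligand with the highest control signal were EGFR and EREG. Both were set against all tested genes for likeness of pattern over the 6 arrays. This serves as a description, since 6 arrays in 2 groups share 1 split. The values of EGFR were most like those of MIEN1 (Pearson r = 0.998), the mitotic kinase NEK6 (0.995) and the mitochondrial nuclease ENDOG (0.995), with log2 fold changes of -0.32, -0.29 and -0.28. Of 18836 genes, 704 had an r above 0.95 with EGFR. The values of EREG were most like those of the chaperone gene HSPA14 (0.999), the TFIID subunit gene TAF7 (0.995) and the sterol regulator SREBF2 (0.995), with log2 fold changes of 0.26, 0.27 and 0.12, and 187 genes had an r above 0.95 with it.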
